A study of Mus musculus with 6 samples.

Results

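The Rhox genes (reproductive homeobox on the X chromosome) encode transcription factors of the homeobox class. The genes described here are Rhox1, Rhox5, Rhox6, Rhox9 and Rhox10, taken by their symbols from 3 deposited tables that each compare 2 libraries over the same 22558 gene entries. Of these 5 genes, 4 had values, and Rhox5 is not analysed here. The tables hold 31 Rhox entries in all. Besides the 4 members with values, Rhox12 and Rhox13 were the only Rhox entries to reach 1 FPKM (sequenced fragments corrected for the length of the transcript and the depth of the library) in any library, and they are reported beside the members.

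The libraries are messenger RNA from 6 mouse cultures at passage 25, with 1 library per culture. The embryonic stem cells (ESC), of strain 129Sv, carried either a Cre-deleted H2A.X gene (H2A.X KO) or the Flox/Flox allele. The induced pluripotent stem cells (iPSC), of a 129Sv/C57 mix, came from fibroblasts of the peritoneum (PF) or of the tail tip (TTF), and from each source there was 1 line labelled 4N+ and 1 labelled 4N-. The labels do not spell out 4N, which is read here, from outside knowledge, as tetraploid complementation, in which a line is asked to form the embryo within a tetraploid host blastocyst. The iPSC labels name H2A.X but give no genotype. All cultures grew on feeder cells with LIF, the cytokine that maintains mouse pluripotent cells, and were passed to gelatin just before lysis to shed the feeders. Each ESC genotype and each iPSC label within a source is thus a single line, and nothing says whether lines came from different animals.

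Rhox genes lie in a cluster of recently duplicated copies on the mouse X chromosome and are known mainly from testis, ovary, epididymis and placenta. Rhox6 and Rhox9 were first described as placenta-specific homeobox genes, and Rhox10 is known for its role in forming spermatogonial stem cells. Many Rhox genes are held silent in the cells of the embryo proper by DNA methylation of their promoters, for which the enzymes Dnmt3a and Dnmt3b are needed, while they are expressed in the trophoblast, the lineage that builds the placenta. In Sertoli and germ cells, Rhox promoters are also reported to be controlled by androgen receptor and by ETS-family factors such as Gabpa.

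Rhox6 and Rhox9 are close relatives, and how much sequence they share decides how far short reads can tell them apart. In GENCODE M21 (GRCm38) both have a coding sequence of 681 bases, of which 617 bases (90.6%) were identical. For the other pairs among Rhox1, Rhox6, Rhox9, Rhox10, Rhox12 and Rhox13, coding identity lay between 54.1% and 60.2% of the aligned bases. The longest identical run of Rhox6 and Rhox9 was 161 bases, coding bases 167 to 327 of both, and is shown because fragments inside it fit both genes. The stretch of 120 bases with the most differences, coding bases 343 to 462, follows for each gene, with the 24 differing bases in capitals.
Rhox6 and Rhox9, shared: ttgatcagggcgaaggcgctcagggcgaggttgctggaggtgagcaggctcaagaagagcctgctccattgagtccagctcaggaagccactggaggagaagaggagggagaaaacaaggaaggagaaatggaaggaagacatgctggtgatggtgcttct
Rhox6: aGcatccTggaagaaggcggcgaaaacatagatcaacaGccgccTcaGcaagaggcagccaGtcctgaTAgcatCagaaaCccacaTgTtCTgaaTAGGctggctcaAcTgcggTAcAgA
Rhox9: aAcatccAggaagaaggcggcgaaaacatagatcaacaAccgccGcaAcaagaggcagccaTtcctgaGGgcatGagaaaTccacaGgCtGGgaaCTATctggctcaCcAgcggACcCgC
Counted over the transcript, 16.5% of the 50-base windows of Rhox6 and 19.1% of those of Rhox9 also occurred in the other gene, and in no other gene. For Rhox1, Rhox10, Rhox12 and Rhox13 the share was 0%. Values of Rhox6 and Rhox9 are uncertain to the extent that fragments from the shared stretches were split between them, which the sources used here do not describe.

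The table of RefSeq promoters (GRCm38.p6) matched 3 of the 5 members, Rhox1, Rhox5 and Rhox10, as well as Rhox12 and Rhox13. The 250 bases before the start of transcription are shown for 3 genes with values, with each CG, the pair of bases that DNA methylation marks, in capitals. They are Rhox1 (chrX:37222259-37222508, minus strand), Rhox10 (chrX:38066225-38066474, plus strand) and Rhox12 (chrX:38110908-38111157, minus strand).
Rhox1: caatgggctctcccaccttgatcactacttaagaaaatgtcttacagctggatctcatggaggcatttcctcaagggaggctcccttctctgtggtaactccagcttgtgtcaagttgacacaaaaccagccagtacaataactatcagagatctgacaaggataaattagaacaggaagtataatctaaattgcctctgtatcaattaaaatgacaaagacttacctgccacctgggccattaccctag
Rhox10: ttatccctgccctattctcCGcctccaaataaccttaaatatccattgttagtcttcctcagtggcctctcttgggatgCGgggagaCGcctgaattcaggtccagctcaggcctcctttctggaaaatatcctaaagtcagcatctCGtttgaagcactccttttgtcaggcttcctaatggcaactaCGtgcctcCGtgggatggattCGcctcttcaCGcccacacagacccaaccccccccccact
Rhox12: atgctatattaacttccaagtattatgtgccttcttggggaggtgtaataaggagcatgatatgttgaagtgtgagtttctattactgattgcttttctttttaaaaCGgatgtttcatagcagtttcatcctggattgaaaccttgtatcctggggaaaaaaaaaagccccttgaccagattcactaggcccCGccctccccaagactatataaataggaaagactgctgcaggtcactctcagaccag
Rhox1 had 0 CG pairs in this window, Rhox10 had 8, Rhox12 had 2 and Rhox13 had 4. The median over 32851 promoters of the same length was 6, and 92.1% of them held at least 1. The sequence CCGGAA, a CG-containing form of the ETS site, was searched on both strands. It was found in none of the 4 windows, as against 12.0% of all promoters. The Rhox1 window, with 0 CG pairs, could not have matched it. Other forms of the ETS site were not searched, so the windows may hold them. The sequence TATAAA, also searched on both strands, occurred in Rhox12 alone among these 4, with its first base 40 bases before the start. It occurred in 12.4% of all promoters. These are matches of letters and carry no measure of methylation or binding.

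Effective depth, the scaling recovered from the tables, differed by less than 2-fold between libraries and is not a count of sequenced reads. It was 39059600 fragments for the H2A.X KO ESC and 49857600 for the Flox/Flox ESC, and lay between 44389400 and 61181100 for the iPSC. Both PF lines had the same value, 44389400. The gene for H2A.X, H2afx, had 6.18 FPKM (279 fragments) with the deletion and 34.9 FPKM (2011 fragments) without it, the direction the labels give, with transcript left in the knockout. The pluripotency factor Pou5f1 was between 166 and 454 FPKM, and all 20 genes of a pluripotency list were measured in every comparison.

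On the deposited values, Rhox6 and Rhox9 were the highest Rhox genes in every library. Both were far higher in the H2A.X KO ESC than anywhere else. In the 4N- PF line the counting interval of Rhox6 (1.15 to 2.09 FPKM) overlapped that of Rhox13 (0.964 to 1.63 FPKM). The levels of these genes rest on implied lengths that differ from GENCODE, 865 against 1010 bases for Rhox6 and 1254 against 876 for Rhox13. The order of Rhox6 and Rhox13 in that line is therefore not settled. Rhox1, Rhox10 and Rhox13 stayed low, below 5 FPKM. Their lowest values were in ESC, but for each gene the interval of an ESC line overlapped that of a PF line. How many of all genes were lowest in ESC was not counted. ESC and iPSC differ in strain and stand in different tables, whose scaling may differ, so their levels are only set side by side. Rhox12 was at or near 0 in the Flox/Flox ESC and in both PF lines, and was clearly present in the H2A.X KO ESC and in both TTF lines. All 6 genes are X-linked, and their positions are given on mm9, the build of the tables.

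Rhox6 (chrX:35180232-35183034) stood at 247 FPKM in the knockout and 11.0 FPKM in its Flox/Flox counterpart. In iPSC it was at 1.57 FPKM in the 4N- and 5.08 FPKM in the 4N+ PF line, and at 17.1 and 10.6 FPKM in the 4N- and 4N+ TTF lines. The knockout was the high library and the 4N- PF line the low one, 157-fold apart, a ratio that crosses tables and strains. Rhox9 (chrX:35252274-35254947) was at 149 and 8.02 FPKM in the H2A.X KO and Flox/Flox ESC, at 2.29 and 4.72 FPKM in the PF lines (4N-, then 4N+), and at 13.0 and 8.80 FPKM in the 4N- and 4N+ TTF lines. The knockout was again highest and the 4N- PF line lowest, 65.0-fold apart, and in both genes the Flox/Flox ESC and the 4N+ TTF line stood close together. FPKM corrects for length, so the genes can be set against each other only as far as the lengths used are right. On the deposited values Rhox6 was the higher in 5 of the 6 libraries. Its ratio to Rhox9 ran from 0.684 in the 4N- PF line to 1.66 in the H2A.X KO ESC. The length implied for Rhox6, 865 bases, is shorter than the 1010 bases in GENCODE, and a shorter length raises FPKM. Smaller ratios, such as 1.08 in the 4N+ PF line and 1.21 in the 4N+ TTF line, therefore do not settle which gene was higher.

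Rhox10 (chrX:35419652-35424865) showed another order. It was at 0.0460 FPKM in knockout and 0.0361 FPKM in Flox/Flox cells, which is 1 fragment in each library. It was at 0.405 FPKM in the 4N- and 1.70 FPKM in the 4N+ PF line, and at 2.91 and 2.80 FPKM in the 4N- and 4N+ TTF lines. All 4 iPSC lines had values above both ESC lines. The 95% Poisson interval of the 4N- PF line (0.194 to 0.745 FPKM) overlapped that of the H2A.X KO ESC, which reached 0.257 FPKM. Rhox1 (chrX:34753800-34762253) was at 0.415 and 0.503 FPKM in the H2A.X KO and Flox/Flox ESC, 0.731 and 1.26 FPKM in the PF lines (4N-, then 4N+), and 1.28 and 1.37 FPKM in the 4N- and 4N+ TTF lines. Rhox1 varied least, by 3.30-fold from the lowest to the highest library. Its 95% Poisson interval in the 4N+ PF line overlapped those in both TTF lines, so the order of these 3 is not resolved by counting.

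Rhox12 (chrX:35457239-35464084) was at 4.45 FPKM in the H2A.X KO ESC, from 127 fragments, and at 0 in the Flox/Flox ESC. A count of 0 there allows up to 3 fragments, or 0.0823 FPKM. The gene was at 0.0308 FPKM (1 fragment) and 0 in the 4N- and 4N+ PF lines and at 0.805 and 0.601 FPKM in the 4N- and 4N+ TTF lines. Rhox13 (chrX:35474017-35483143), a gene of male germ cells, was at 1.05 and 0.516 FPKM in the H2A.X KO and Flox/Flox ESC, at 1.27 and 1.12 FPKM in the PF lines (4N-, then 4N+), and at 4.14 and 3.03 FPKM in the 4N- and 4N+ TTF lines. For both genes the TTF lines were above the PF lines.

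**Figure D1:**
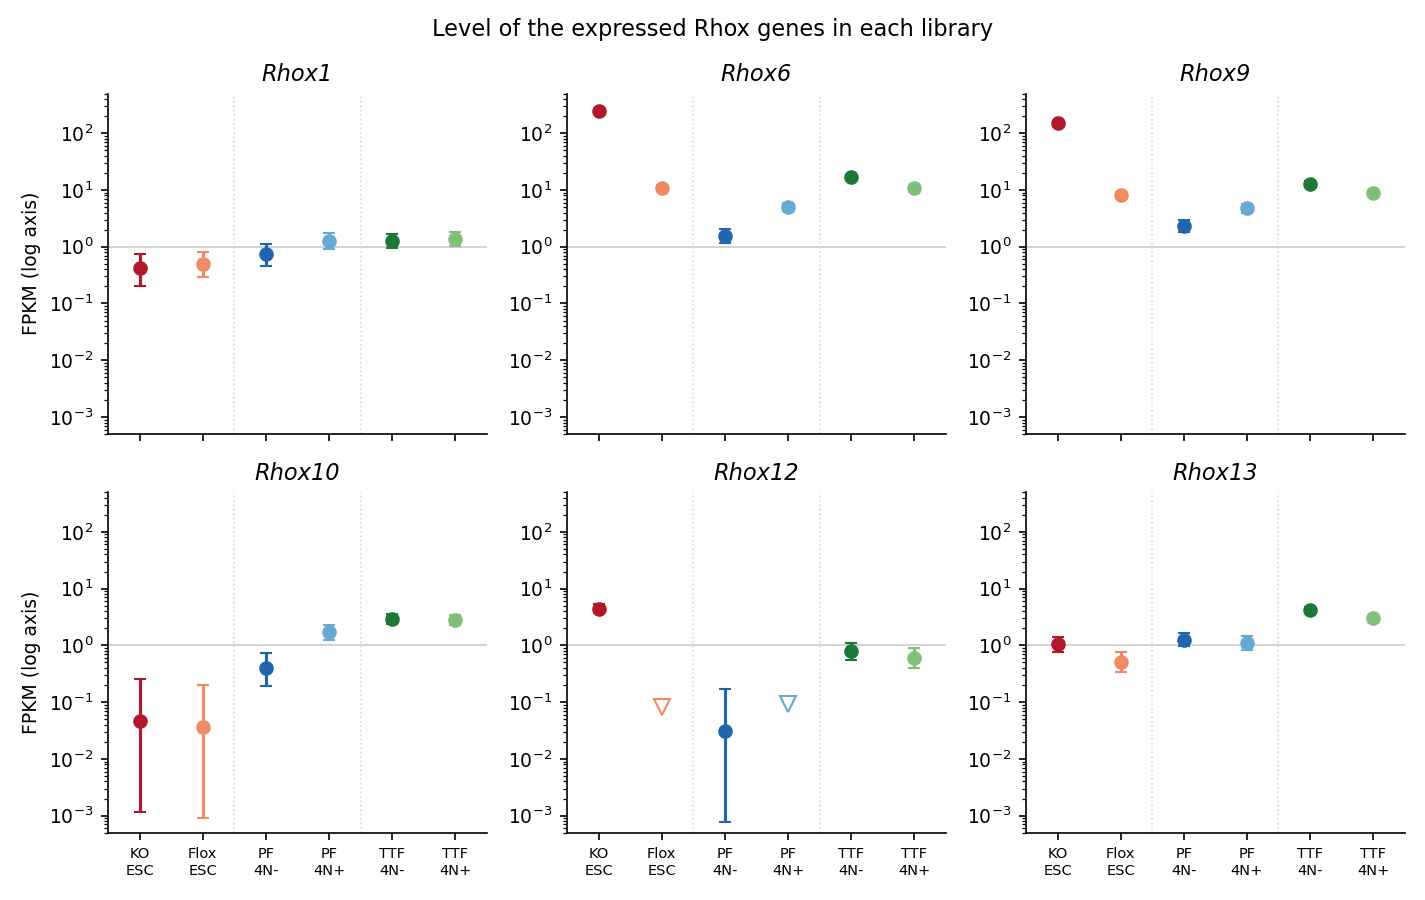
FPKM of each Rhox gene (panel) in each library (horizontal axis), on a log axis. Points are single libraries, bars are exact Poisson 95% intervals from the recovered fragments (counting error only), open triangles mark the level of 3 fragments where a library had 0, and the grey line is 1 FPKM. Rhox6 and Rhox9 peak in the H2A.X KO ESC at 247 and 149 FPKM, while Rhox10 is near 0 in both ESC.

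The other 25 Rhox entries were all below 0.1 FPKM in every library, with a highest value of 0.0588 FPKM, and 13 were listed at 0 throughout. Of these 25, 22 are copies of Rhox2, Rhox3 and Rhox4. Over the 54 GENCODE transcripts of 23 such genes, 42.8% to 100% of the 50-base windows (median 84.3%) also lay in another gene. Gapdh, a housekeeping gene with many near-identical copies, was listed at only 0.598 to 0.942 FPKM in these libraries. The near-0 values of the multicopy Rhox genes therefore cannot be read as lack of transcript.

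The first comparison asks what differs in ESC once H2A.X is deleted. In the H2A.X KO ESC, the members Rhox6 and Rhox9 were far above their Flox/Flox levels, while Rhox1 and Rhox10 stayed below 1 FPKM in both. Rhox12, which is not a member, was also far higher. It reached 1 FPKM in the knockout library alone, so it is reported only through the library where it is high. Rhox6 was 22.4-fold higher (95% counting interval 20.2 to 25.0, 6373 against 363 fragments), a difference of 4.37 in log2(FPKM + 1). Rhox9 was 18.6-fold higher (16.4 to 21.1, 3946 against 271 fragments), a difference of 4.06. Rhox12 was at least 54.0-fold higher when set against a floor of 3 fragments in the Flox/Flox library, and with the counting error of its own 127 fragments included, the lower 95% limit of the ratio was 43.3. Rhox13 was 2.03-fold higher (1.23 to 3.42, 43 against 27 fragments). At these levels its difference in log2(FPKM + 1) was only 0.43.

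Both measured members, Rhox6 and Rhox9, were at least 2-fold higher, as were 7.49% of the 12086 genes measured in this comparison, while 3.72% were 2-fold lower. Measured means 1 FPKM or more in either library or both, and the 2-fold call is on log2(FPKM + 1). With 1 library per genotype there is no replicate check and no p-value was computed. In the authors' deposited table, which calls 1.44% of 14589 tested genes, Rhox6 had q = 1.51e-07 and Rhox9 q = 2.48e-06. Rhox12 was not called there (q = 0.277). For Rhox1, at 11 and 17 fragments, the ratio was 0.826 with an interval of 0.3497 to 1.87. For Rhox10, at 1 fragment in each library, the interval of the ratio began at 0.0163 and reached far above 1, so no difference was detectable at this depth.

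The expressed genes that flank the cluster did not differ 2-fold. The 31 Rhox entries span 729344 bases, chrX:34753800-35483143, and within them Rhox10, at 1 fragment in each ESC library, lies between Rhox9 and Rhox12. Of the 10 genes nearest to the cluster, 5 on each side, 5 reached 1 FPKM: Nkap, Ndufa1, Rnf113a1, Zbtb33 and Lamp2. This held for all 5 in each of the 3 comparisons. Their log2(FPKM + 1) differences in the knockout lay between -0.37 (Nkap) and 0.57 (Lamp2, a lysosomal membrane protein gene). The median over 225 X-linked genes at 5 FPKM or more in both ESC libraries was -0.27, beside -0.20 over 6674 autosomal genes.

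**Figure D2:**
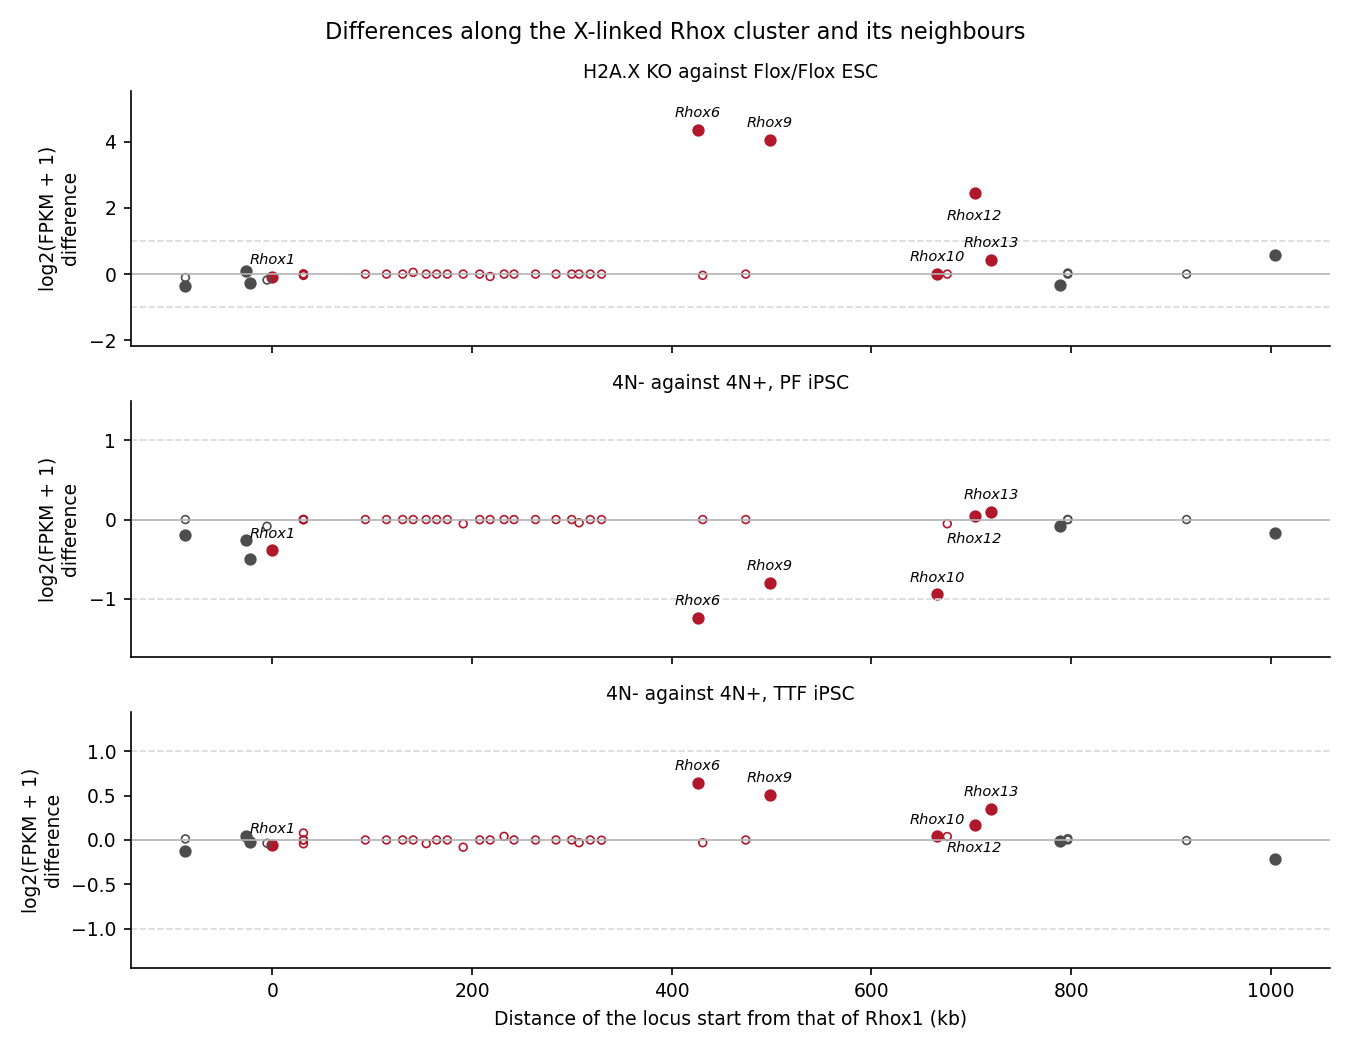
Difference in log2(FPKM + 1) of each gene (vertical axis) against the distance of its locus start from that of Rhox1 in kb, for the 3 comparisons, with a scale of its own in each panel. Red points are Rhox entries and grey points the 5 nearest genes on each side; filled points reached 1 FPKM in at least 1 of the 6 libraries, and dashed lines mark 2-fold. Rhox6 and Rhox9 lie at 4.37 and 4.06 in the knockout comparison, while no flanking gene passes 2-fold.

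Genes of other lineages moved with Rhox6 and Rhox9 in the knockout library. Of 19 measured genes of a trophoblast list, 14 were at least 2-fold higher and 0 lower, with a median log2(FPKM + 1) difference of 1.74 beside -0.03 over all measured genes. The summed level of the list was 1428 FPKM with the deletion and 156 FPKM without it. Krt18, a keratin of simple epithelia, was at 659 and 26.7 FPKM, and Hand1, a transcription factor of trophoblast giant cells, at 34.0 and 0.829 FPKM. The placental hormone genes Prl3d1 and Prl2c2 were at 0 in both libraries. Of a primitive endoderm list, 4 of 7 measured genes were 2-fold higher (median 1.04), its summed level being 376 and 98.8 FPKM, with Ttr at 0 in the knockout and Foxa2 at 0 in the Flox/Flox ESC.

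Genes listed as markers of fibroblasts, feeders and macrophages also differed, as did pluripotency genes. Of the fibroblast and feeder list, 6 of 8 measured genes were 2-fold higher in the H2A.X KO ESC (median 1.13, summed level 211 and 100.03 FPKM), with Lum at 0 in both and Postn at 0 in the Flox/Flox ESC. Both measured genes of a macrophage list of 9 were 2-fold higher, Csf1r at 11.3 and 0.131 FPKM and Cd68 at 41.6 and 11.6 FPKM. The other macrophage markers stayed below 1 FPKM in both libraries, with Emr1 and Lyz2 at 0 in the Flox/Flox ESC and Tyrobp at 0 in the knockout. Of the pluripotency list, 5 of 20 were 2-fold lower (median -0.78, summed level 1741 and 3341 FPKM). Whether fibroblasts, feeders or macrophages were present, and what part they had in the Rhox6, Rhox9 and Rhox12 levels, was not tested. In bulk libraries, more cells of a type and more RNA per cell cannot be told apart.

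Of 19 measured genes of a general list for DNA methylation and promoter silencing, 4 were at least 2-fold lower and 0 higher, with a median of -0.39. Tet1, which oxidises methylated cytosine, was at 21.5 FPKM with the deletion and 82.1 FPKM without it. The de novo DNA methyltransferases Dnmt3a (13.3 and 35.8 FPKM) and Dnmt3b (36.0 and 89.4 FPKM) and the chromatin remodeller Hells (73.7 and 187 FPKM) were the other 3. The centre of all well-expressed genes lay at -0.20 in this comparison, and the list's median was -0.18 after that shift was removed.

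Germline genes whose promoters are known to be silenced by methylation gave a smaller difference than Rhox6 and Rhox9. Of 18 measured, 4 were 2-fold higher and 0 lower (median 0.58): Taf7l (16.9 and 2.31 FPKM), Tex101, Mael and Tex13. Of 7 measured factors reported at Rhox promoters, 2 were 2-fold higher, Ets1 (6.58 and 0.755 FPKM) and Ets2 (9.36 and 3.98 FPKM). The ETS-family gene Gabpa was at 17.2 and 32.6 FPKM, a difference of -0.88. Ets2 is also on the trophoblast list. Germ cell markers had 2 of 11 measured genes 2-fold higher, Tex101 and Mael, both already counted among the germline genes, and Sertoli and granulosa cell markers 0 of 4, with Fshr and Rhox8 at 0 in both ESC libraries. Any link of these genes to the Rhox levels was not tested.

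In PF iPSC, which compare a 4N- with a 4N+ line, all 4 Rhox members with values were lower in the 4N- line. Most measured genes were lower there as well, with a median log2(FPKM + 1) difference of -0.13 over 11606 genes. Rhox6, at 46 fragments in the 4N- and 149 in the 4N+ line, had a ratio of 0.309 (95% counting interval 0.217 to 0.432) and a difference of -1.24 in log2(FPKM + 1). Rhox9, at 69 and 142 fragments, had a ratio of 0.486 (0.359 to 0.652) and a difference of -0.80. Rhox10, at 10 and 42 fragments, had the smallest ratio, 0.238 (0.107 to 0.482), and a difference of -0.94. Rhox1, at 22 and 38 fragments, had a ratio of 0.579 whose interval, 0.326 to 1.004, just held 1. Rhox13 did not share the direction, at 59 and 52 fragments and a ratio of 1.13 (0.768 to 1.68).

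Of the 4 measured members, 1 (Rhox6) was 2-fold lower on the log2(FPKM + 1) scale, as were 0.974% of the 11606 measured genes, and 0.577% were 2-fold higher. On the plain ratio of fragments, an alternative added after seeing the data, 3 members were 2-fold lower, Rhox6, Rhox9 and Rhox10, since the added 1 FPKM shrinks differences of low genes. On that scale 1.84% of the 11606 genes were 2-fold lower. With a pseudocount of 0.1 the same 3 members were 2-fold lower, as were 1.65% of genes. In the authors' deposited table, which calls 0.537% of 13956 genes here, no Rhox gene was called. In the authors' deposited table q was 0.2998 for Rhox6 and 0.382 for Rhox10. All well-expressed genes were centred at -0.17 in this pair, and 226 X-linked genes had a median of -0.16.

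The 2 PF lines also differed in markers of fibroblasts, the cells they were made from and the feeders they grew on. Of 12 measured genes of the fibroblast and feeder list, 6 lay below the 4N+ level by 2-fold or more in the 4N- line and 0 exceeded it so far (median -0.80, summed level 129 and 251 FPKM). S100a4 was at 0.153 and 40.1 FPKM and the collagen gene Col1a2 at 0.0228 and 5.41 FPKM. Lum was at 0 in both lines, Postn and Dcn in the 4N- line, and Twist2 in the 4N+ line. What part such cells had in the Rhox levels was not tested. Of the silencing list, Dnmt3a was 2-fold lower (11.4 and 23.9 FPKM) as 1 of 19, and Zfp57, which keeps imprinted loci methylated, was at 211 and 109 FPKM. Among 15 measured methylation-sensitive germline genes, Tex13 alone was 2-fold higher in the 4N- line (10.7 and 1.15 FPKM), opposite to the Rhox members. No measured trophoblast gene of 13 differed 2-fold.

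In TTF iPSC, Rhox6 and Rhox9 were modestly higher in the 4N- line, and Rhox10 and Rhox1 were nearly level. Rhox6 had 693 fragments in the 4N- and 415 in the 4N+ line, a ratio of 1.61 (95% counting interval 1.43 to 1.83) and a log2(FPKM + 1) difference of 0.64. Rhox9 had 538 and 353 fragments, a ratio of 1.47 (1.29 to 1.69) and a difference of 0.51. Rhox13, with 266 and 188 fragments, had a ratio of 1.37 (1.13 to 1.66). The intervals of Rhox10 (ratio 1.04, 0.775 to 1.40), Rhox1 (0.932, 0.627 to 1.38) and Rhox12 (1.34, 0.786 to 2.31) all held 1. None of the 4 measured members differed 2-fold, where 0.185% of 11354 measured genes were 2-fold higher and 0.564% lower. In the authors' deposited table, which calls 0.301% of 14289 genes for this pair, none was called (q = 0.509 for Rhox6 and 0.981 for Rhox9).

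Marker lists differed little between these TTF lines. Of 15 measured trophoblast genes 0 differed 2-fold (median 0.32, summed level 151 and 127 FPKM), and likewise 0 of 5 fibroblast and feeder genes (median -0.10), 0 of 18 silencing genes (median 0.01) and 0 of 17 methylation-sensitive germline genes (median 0.07).

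**Figure D3:**
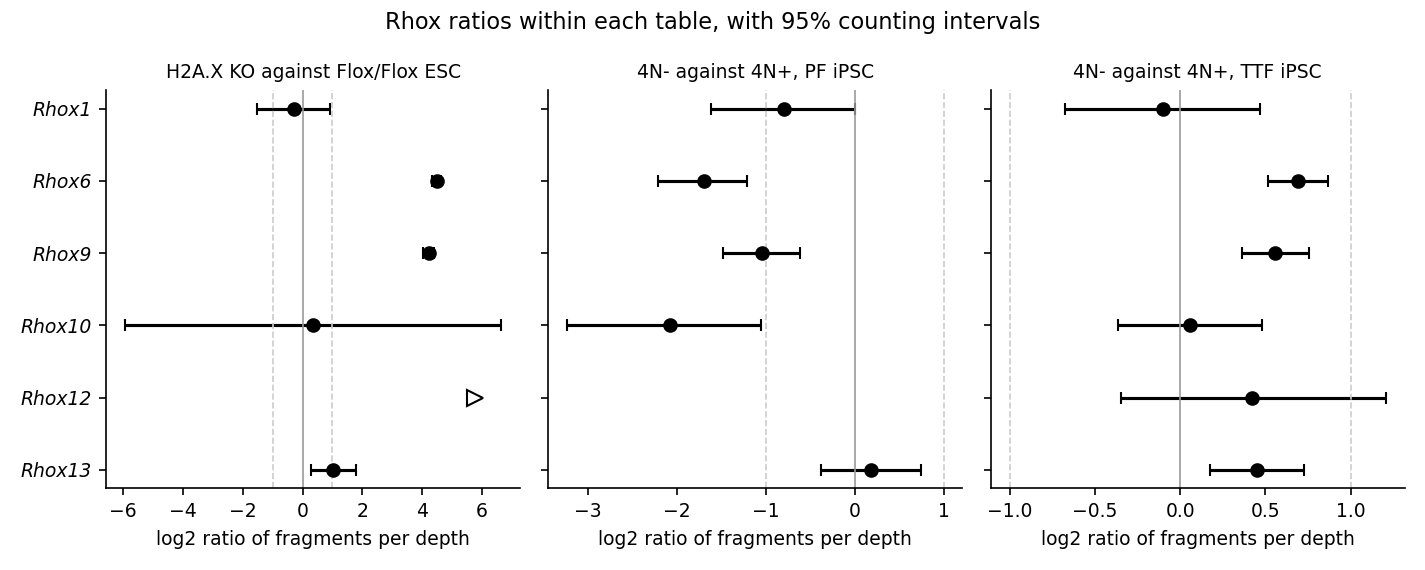
Ratio of recovered fragments per depth, first over second library, on a log2 axis for each Rhox gene (rows) in the 3 comparisons, each with its own horizontal scale. Bars are 95% conditional binomial intervals (counting error only), the open triangle is the lower bound for Rhox12, and dashed lines mark 2-fold. Rhox6 and Rhox9 are on the right of 0 in the knockout and TTF panels and on the left in the PF panel.

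**Figure D4:**
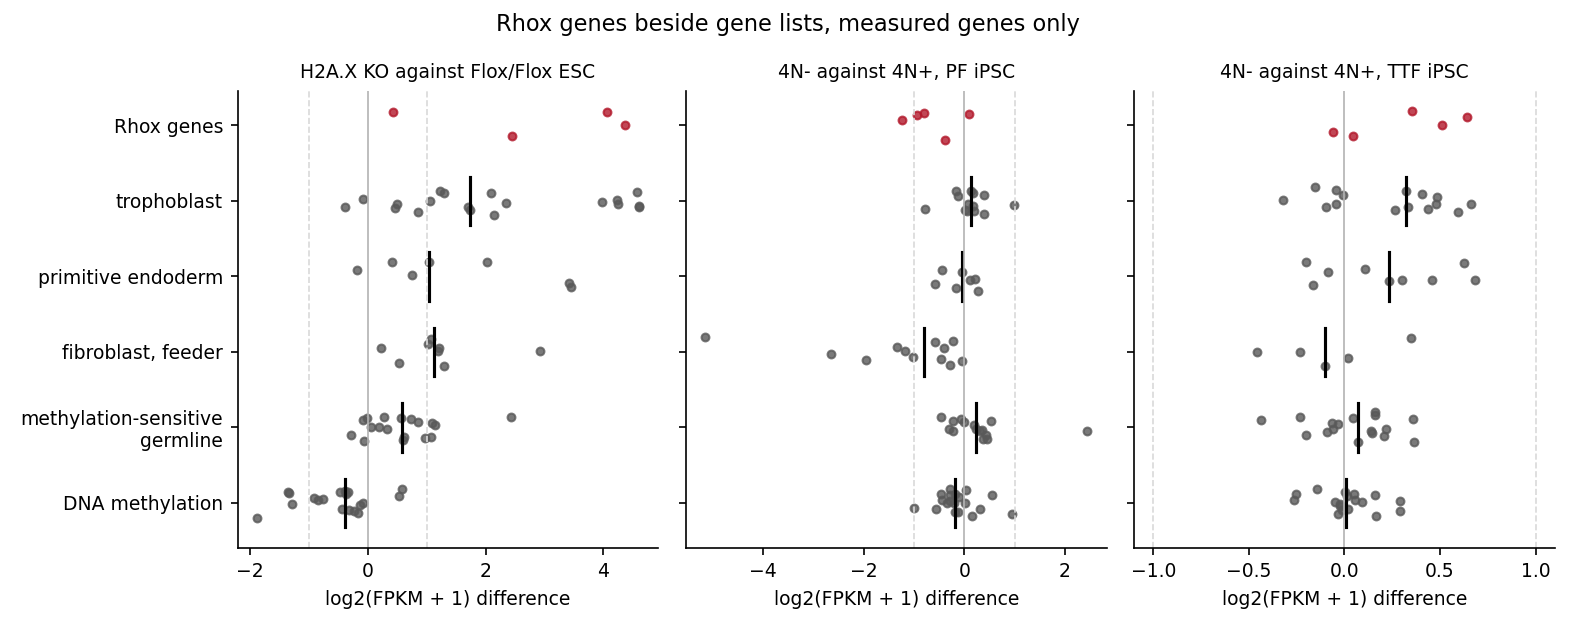
Difference in log2(FPKM + 1) (horizontal axis, scaled per panel) of the measured Rhox genes (red) and of measured genes of 5 lists (grey), with the list's median as a black bar and 2-fold as dashed lines. Points are spread vertically only to be seen. The trophoblast list has a median of 1.74 in the knockout comparison and the fibroblast and feeder list one of -0.80 in PF iPSC.

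Over the 4 iPSC libraries, a limma fit of 4N- against 4N+ with the parental cells as a block called 14 of 11985 genes (0.117%), and no Rhox gene was among them. The log2(FPKM + 1) difference was -0.30 (SE 0.32) for Rhox6, -0.14 (SE 0.25) for Rhox9, -0.45 (SE 0.22) for Rhox10, -0.22 (SE 0.18) for Rhox1 and 0.23 (SE 0.16) for Rhox13, each with a limma adjusted p of 0.999. Unadjusted, 446 genes were below 0.05, and the 5 Rhox genes were not among these, Rhox10 having the lowest p (0.067, limma). Rhox6 and Rhox9 were lower in the 4N- line of the PF pair and higher in that of the TTF pair.

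The Rhox levels of the TTF lines stood above those of the PF lines whatever the 4N label, a pattern chosen after the values were seen. Of the 5 Rhox genes that reached 1 FPKM in iPSC, all 5 had higher values in both TTF lines than in both PF lines (for Rhox1 by less than the counting error of these libraries), as were 28.1% of the 11985 genes at that level. The lowest TTF value was 2.09 times the highest PF value for Rhox6, 2.39 for Rhox13, 1.87 for Rhox9, 1.64 for Rhox10 and 1.01 for Rhox1. At least 2-fold separation was thus seen for 2 of the 5, Rhox6 and Rhox13, and for 2.45% of all genes. The PF and TTF lines stand in different tables, whose scaling may differ, and source and table cannot be told apart.

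The genes with the profile most like that of Rhox6 over the 6 libraries, among 7918 genes at 5 FPKM or more in some library, began with Rhox9 (Pearson r = 0.997). Zkscan14 (0.995), F2r (0.994), Mmp14 (0.994) and Trip6 (0.990) followed. For Rhox9 they were Rhox6 (0.997), Zkscan14 (0.995), Bscl2 (0.995), Krt7 (0.993) and Hic2 (0.991). The H2A.X KO ESC was the highest library for each of these genes, so the correlations describe mainly that 1 library, and they carry no test. The sizes differ widely. Zkscan14 was between 2.52 and 5.33 FPKM, while Krt7, a keratin of simple epithelia and trophoblast, was between 1.39 and 83.1 FPKM.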

How the data were processed

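Messenger RNA was sequenced from 6 cultures and the authors deposited 3 tables of 2 libraries each. Reads passed through CASAVA and TopHat2 on mm9, per the submitters' processing notes. For the quantifier, annotation, versions and strand use, nothing is given in the sources used here. The library values were read as FPKM as deposited by the authors: the file headers do not name the unit, but the values are never negative and not whole. The p-values, q-values and significance calls are the authors', per the file headers. The deposited log2 fold changes were not used.

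FPKM was compared within a table as log2(FPKM + 1), which understates changes of low genes. Effective depth came from the values of 1169 intronless receptor genes, which are whole multiples of what 1 fragment is worth (100% within 0.05 of a whole number at a length offset of 204 bases). The fragments of each Rhox gene then follow from the smallest effective length that makes its 6 values whole. That length plus the offset is 882 bases for Rhox9, 865 for Rhox6 and 1254 for Rhox13, as against 882, 1010 and 876 bases in GENCODE, so the Rhox6 and Rhox13 fragments rest on lengths that differ from that annotation. Intervals are exact Poisson (levels) or conditional binomial (ratios) at 95% and cover counting error only. The iPSC fit used limma 3.58.1 in R 4.3.3 (trend, Benjamini-Hochberg adjustment, threshold 0.05), after a test on simulated data. Its SE and p-values rest on how far the PF and TTF pairs disagree, with each gene's variance drawn toward that of genes of similar level. They do not measure the spread between lines for a single gene.

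Named genes are all members, other Rhox genes reaching 1 FPKM, up to 4 genes per list and comparison by size, the 5 nearest genes on each side, and the 5 most correlated genes of members reaching 5 FPKM. A total of 7 genes (Dazl, Ddx4, Mael, Sycp3, Tex101, Dppa3 and Ets2) are in 2 lists each. Members and lists were chosen with earlier results of these data known. Alternatives were another pseudocount, another filter, centring, no block, each library left out and, added later, plain fragment ratios.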

Additional observations from a re-analysis of the deposited data

Results flagged for a closer look

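The 4N- against 4N+ difference went opposite ways in the PF and TTF pairs for 3 members, and this contrast between pairs was not tested, with 1 pair of each kind. For Rhox6 the log2(FPKM + 1) difference was -1.24 in the PF pair and 0.64 in the TTF pair. For Rhox9 it was -0.80 and 0.51. For Rhox10 it was -0.94 and 0.042, and the TTF value had a counting interval that held equality.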

How the results depend on the processing

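The 2 members called 2-fold higher in the H2A.X KO ESC and the 0 called in the TTF pair kept those counts under every alternative run (pseudocount of 0.1, no filter, minimum of 5 FPKM, centring and fragment ratios). In the PF pair the count of 1 became 3 with a pseudocount of 0.1 and 3 with fragment ratios, while the share of all measured genes 2-fold lower went from 0.974% to 1.65% and 1.84%. Of 36 member values within a table under alternatives, 3 moved by more than 0.5 of the width of their 95% counting interval and 1 reversed, Rhox1 in the knockout (0.12 after centring), a gene under 1 FPKM in both ESC libraries. Over the 4 iPSC libraries, the limma count of 14 became 0 with no filter (1015 genes at an unadjusted p below 0.05), 67 at a minimum of 5 FPKM, and 1 to 17 with a library left out: 3 without the 4N+ TTF line and 1 without the 4N- PF line. The parental cells were a block in that fit. With no replicate block the count was 3. Deviations from the label mean in the 2 PF lines had a correlation of 0.44 over genes, and those of the TTF lines mirror them. Lines of a source thus deviated together, and source and table cannot be told apart in this. No member was called under any setting. With a library left out the difference ran from -1.71 to 1.11 for Rhox6, -1.19 to 0.90 for Rhox9, -1.19 to 0.29 for Rhox10 and -0.42 to -0.02 for Rhox1. Such fits and the fit with no block compare values across tables, and the lone line of a label is assumed to vary like the others. Depth limits Rhox10 in ESC and Rhox12 in PF lines, at 0 or 1 fragment.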
